A study of Mus musculus with 9 samples.

Results

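Oct4 (gene symbol Pou5f1), Sox2, Klf4 and c-Myc (gene symbol Myc) are the 4 transcription factors that were put into mouse embryonic fibroblasts (MEFs) on plasmids to turn them into induced pluripotent stem cells. The 4 genes were taken by symbol from a table of 12550 genes in 9 RNA-seq libraries, and each symbol matched 1 entry. All libraries came from C57Bl/6cJ MEFs that received the same factor plasmids and grew in mouse embryonic stem cell medium with LIF. They differed in the short hairpin RNA (shRNA) supplied on a pretroSuper vector and in the day of collection. The Hnrnpk arm carried a hairpin against Hnrnpk, which encodes an RNA-binding protein that works with lincRNA-p21. The lincRNA-p21 arm carried a hairpin against that long noncoding RNA, a p53 target. The luciferase arm carried a hairpin against luciferase, the study's control. Each arm gave 1 library on each of days 6, 9 and 12, and values listed in a row for an arm are in that order of days. Per the labels, a library holds merged replicates, with no word on their number or on whether they came from separate cultures. A library without factor plasmids, and sorted reprogrammed cells, were not analysed here.

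Oct4 and Sox2 bind DNA together at the enhancers of pluripotency genes, including their own and Nanog, and hold one another's expression up in embryonic stem cells. Klf4 binds GC-rich promoters and activates epithelial genes such as the E-cadherin gene Cdh1, while Myc pairs with Max at E-boxes and raises the expression of growth, ribosome assembly and metabolic genes. In reprogramming all 4 are first supplied from outside, and the cells' own Pou5f1 and Sox2 genes switch on late. The deposited values count transcripts by gene, so plasmid and endogenous RNA of a factor cannot be told apart, and each value below is their sum. In bulk RNA, fewer cells carrying a transcript and less of it per cell cannot be told apart either.

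Values are the authors' signal, on a scale shared by all libraries whose column totals differ by 0.0252%. Depth in reads is unknown. The 4 factors stood among the genes with the highest signal, with ranks from the top between 9 and 253 of 12550 genes. The hairpin against Hnrnpk left Hnrnpk at 11349, 17016 and 12793 on days 6, 9 and 12, against 31243, 26944 and 23376 in luciferase libraries. The lincRNA-p21 gene, listed as Trp53cor1, was at 90.5, 122 and 97 in lincRNA-p21 libraries and at 286.5, 237 and 250 in luciferase libraries, a log2 difference of −1.25 that missed the threshold (adjusted p = 0.0603 by limma). It was also lower in Hnrnpk libraries, at 131, 137 and 119.5, a log2 difference of −0.94 from the luciferase arm that passed (adjusted p = 0.00752). The lincRNA-p21 arm was not shown to differ from the Hnrnpk arm on this gene (−0.31, adjusted p = 0.318). Fibroblast markers were measured for 18 of 18 genes, and their summed signal ran between 245442 and 416318 in the Hnrnpk arm, 295430 and 436665 in the lincRNA-p21 arm and 309655 and 366471 in the luciferase arm. Col1a2 and Vim had the highest means of these markers, 109318 and 93665, and both reached the highest value of the scale, 118715. In the Hnrnpk library of day 9 they were at 62336 and 62353, so the sums depend largely on values at the top of the scale. Of markers of other cell types, 2 of 9 macrophage genes, 1 of 5 endothelial genes and 6 of 6 keratinocyte genes were among those measured.

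By GENCODE annotation of mm10, Pou5f1 lies at chr17:35506018-35510772 on the plus strand, Sox2 at chr3:34650405-34652461 on the plus strand, Klf4 at chr4:55527143-55532466 on the minus strand and Myc at chr15:61985391-61990374 on the plus strand. Sox2, a single-exon gene, lies within the span of the noncoding gene Sox2ot on the same strand, and they share 0 exonic bases. Sox2ot itself was at 62.5 to 103 in the Hnrnpk arm, 63 to 84.5 in the lincRNA-p21 arm and 71 to 156 in the luciferase arm, far under Sox2. The promoters of Pou5f1, Sox2 and Klf4 are shown because endogenous copies of the factors are transcribed from them, and that of Nanog because it is a target of Oct4 and Sox2. Each runs 5′ to 3′ along the gene, from 250 bases before the RefSeq start to 50 after it (build GRCm38.p6), and capitals mark matches to the motifs named beneath. Of these 4 genes and Myc, 4 matched the RefSeq promoter table. The Sox2 window ends at 34650044, upstream of the GENCODE start of Sox2 at 34650405, so the RefSeq and GENCODE starts differ.
Pou5f1, chr17:35505782-35506081, plus strand: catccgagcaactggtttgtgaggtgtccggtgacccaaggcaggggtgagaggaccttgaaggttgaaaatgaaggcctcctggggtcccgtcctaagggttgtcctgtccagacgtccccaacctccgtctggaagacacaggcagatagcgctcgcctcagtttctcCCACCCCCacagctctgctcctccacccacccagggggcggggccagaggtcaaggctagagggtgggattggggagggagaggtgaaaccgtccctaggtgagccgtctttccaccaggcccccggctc
Sox2, chr3:34649745-34650044, plus strand: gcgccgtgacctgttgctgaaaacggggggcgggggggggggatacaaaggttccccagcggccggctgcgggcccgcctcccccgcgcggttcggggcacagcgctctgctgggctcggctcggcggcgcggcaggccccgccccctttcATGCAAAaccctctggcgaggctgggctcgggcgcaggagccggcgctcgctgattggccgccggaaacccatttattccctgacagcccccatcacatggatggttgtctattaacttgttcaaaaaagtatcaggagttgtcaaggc
Klf4, chr4:55532426-55532725, minus strand: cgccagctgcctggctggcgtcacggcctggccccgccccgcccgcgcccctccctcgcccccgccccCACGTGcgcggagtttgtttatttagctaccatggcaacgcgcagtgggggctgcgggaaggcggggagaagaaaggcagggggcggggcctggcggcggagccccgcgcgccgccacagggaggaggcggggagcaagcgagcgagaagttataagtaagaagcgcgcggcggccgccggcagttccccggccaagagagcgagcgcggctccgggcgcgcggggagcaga
Nanog, chr6:122707239-122707538, plus strand: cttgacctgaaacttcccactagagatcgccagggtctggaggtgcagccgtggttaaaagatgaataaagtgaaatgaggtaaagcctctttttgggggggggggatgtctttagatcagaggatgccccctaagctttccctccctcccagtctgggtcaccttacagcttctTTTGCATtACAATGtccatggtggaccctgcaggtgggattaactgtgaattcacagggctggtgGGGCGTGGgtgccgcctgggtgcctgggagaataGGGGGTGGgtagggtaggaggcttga

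Both strands were searched for the octamer core ATGCAAA that POU factors bind, for the SOX core ACAATG, for the E-box CACGTG of Myc and Max, and for the Klf4 motif GGGNGTGG, where N is any base. The Nanog window held the octamer core as TTTGCAT and the SOX core ACAATG with 1 base between them, the composite arrangement known from Oct4 and Sox2 targets, and it also held the Klf4 motif as GGGCGTGG and GGGGGTGG. The Sox2 window held 1 octamer core, the Pou5f1 window 1 Klf4 motif on the minus strand (CCACCCCC), and the Klf4 window 1 E-box. Among all 32851 RefSeq mouse promoters of this length, 4.63% held the octamer core, 12.6% the SOX core, 7.15% the E-box and 17.6% the Klf4 motif. None of the motif matches overlapped another.

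In the Hnrnpk arm Sox2, Klf4 and Myc were lower than in the luciferase arm, by 1.39-fold, 1.75-fold and 1.83-fold, and Pou5f1 was lower on days 6 and 12 but level on day 9. Changes are differences in log2(signal + 10) from a limma fit over all 9 libraries with terms for arm and day, called at a Benjamini-Hochberg adjusted p under 0.05. The error comes from the spread of an arm's difference over the 3 days, since there was 1 library per arm and day, and not from the spread between cultures.

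**Figure D1:**
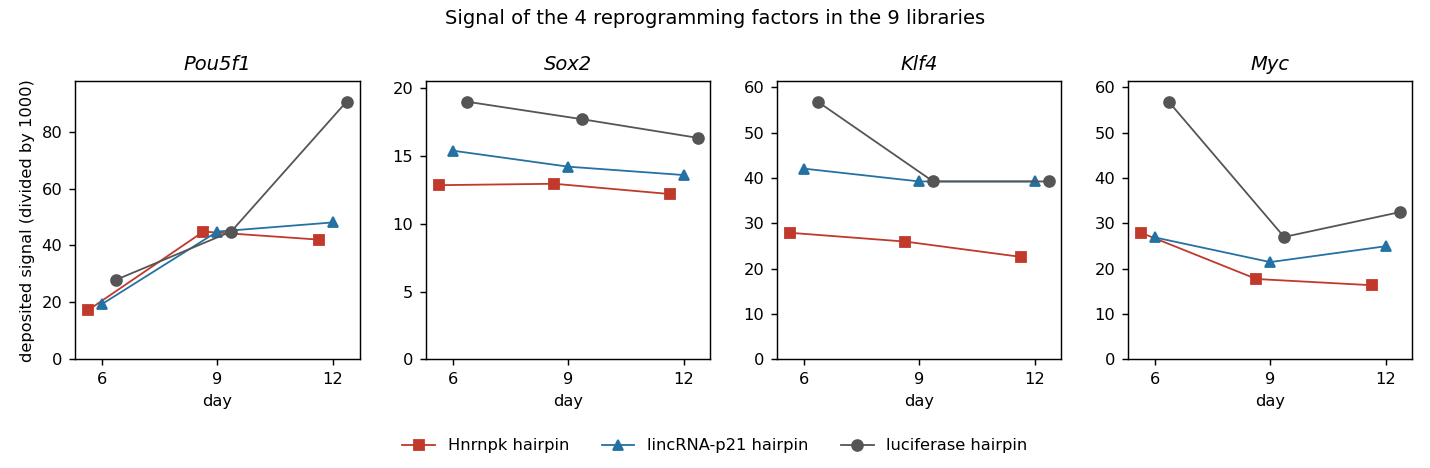
Deposited signal divided by 1000 (vertical axes, each starting at 0 and with its own range) of Pou5f1, Sox2, Klf4 and Myc on days 6, 9 and 12 (horizontal axes) in the Hnrnpk, lincRNA-p21 and luciferase hairpin arms, 1 library per point. Sox2 was highest in the luciferase arm on every day, between 16340 and 19009, and Pou5f1 was at 44876 in all 3 arms on day 9.

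Klf4, a zinc finger factor, had a signal of 27901, 25958 and 22588 on days 6, 9 and 12 in Hnrnpk libraries, against 56808.5, 39217 and 39217 in luciferase libraries. Every Hnrnpk library was below every luciferase library, with means of 25482 ± 2688 and 45081 ± 10157 (SD over the days, n = 3 each). The log2 difference was −0.81 (SE 0.14, 95% interval −1.12 to −0.49, limma adjusted p = 0.00948). Only 2.15% of genes had a lower difference in this comparison. Leaving out any single library kept the call, but leaving out the 3 libraries of a whole day did not for day 9 (adjusted p = 0.114) or day 12 (adjusted p = 0.065), in a range of 0.00726 to 0.532 over the alternatives.

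Myc, a basic helix-loop-helix factor with an unstable transcript and protein, had a signal of 27901, 17713 and 16340 in Hnrnpk libraries, against 56808.5, 26978 and 32439 in luciferase libraries. The Hnrnpk library was the lower one on each day, although the day 6 Hnrnpk library lay above the day 9 luciferase library, so the arms overlapped. Myc had a log2 difference of −0.87 (SE 0.17, 95% interval −1.27 to −0.48, limma adjusted p = 0.0148), and 1.57% of genes had a lower one. The call was lost without the Hnrnpk library of day 9 (adjusted p = 0.0525) or of day 12 (adjusted p = 0.0644), in a range of 0.00876 to 0.363 over the alternatives.

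Sox2, the HMG-box partner of Oct4, had a signal of 12848, 12952 and 12194 in Hnrnpk libraries, against 19009, 17713 and 16340 in luciferase libraries. The arms did not overlap, and within each arm Sox2 varied little, at 12665 ± 411 and 17687 ± 1335 (SD over the days, n = 3 each). The log2 difference was −0.48 (SE 0.10, 95% interval −0.71 to −0.24, limma adjusted p = 0.0201). With any 1 of the 6 libraries of days 9 and 12 left out the difference was −0.48 to −0.50 and the adjusted p 0.0509 to 0.0856, in a range of 0.0142 to 0.325 over the alternatives.

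Pou5f1, the POU-domain factor, had a signal of 17258.5, 44876 and 42046.5 in Hnrnpk libraries, against 27901, 44876 and 90514 in luciferase libraries. The arms overlapped and held the same value on day 9. Its log2 difference of −0.60 (SE 0.20, 95% interval −1.06 to −0.14) missed the threshold (limma adjusted p = 0.0885). Without the luciferase library of day 9 it was −0.87 and passed (adjusted p = 0.0422), and without that of day 12 it was −0.36 (adjusted p = 0.273), in a range of 0.0422 to 0.796 over the alternatives. Of the 4 factors 3 were called lower and 0 higher, where 12.5% of all tested genes were called, 6.94% lower and 5.58% higher. With only these arms in the fit the differences were the same and no call held (adjusted p = 0.0576 for Klf4, 0.0513 for Myc and 0.13 for Sox2). That smaller fit called 2.63% of all genes. The 2 factors whose arms did not overlap, Sox2 and Klf4, compare with 8.52% of all genes whose Hnrnpk libraries all lay below the luciferase libraries.

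Within single days, with no test, Klf4 and Myc each stood at a log2 difference of −1.03 on day 6, where 2.08% of genes were at least 2-fold lower. On day 9 the differences were −0.60 for Klf4, −0.61 for Myc, −0.45 for Sox2 and 0 for Pou5f1, so no factor was 2-fold lower, as 1.33% of genes were. On day 12 Pou5f1 had the largest difference of the 4, at −1.11, followed by Myc at −0.99, Klf4 at −0.80 and Sox2 at −0.42, and 2.46% of genes were at least 2-fold lower.

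In the lincRNA-p21 arm no factor passed the threshold against the luciferase arm, where 1 of 12541 genes did (0.00797%) and 1730 had an unadjusted p under 0.05. All 4 fitted differences were below 0, and both hairpin arms were compared with the same luciferase libraries. Sox2 had a signal of 15392.5, 14212.5 and 13595 on days 6, 9 and 12 in lincRNA-p21 libraries, against 19009, 17713 and 16340 in luciferase libraries. Each lincRNA-p21 library was below every luciferase library. The log2 difference of Sox2 was −0.30 (95% interval −0.53 to −0.06, limma adjusted p = 0.267), and it was −0.30, −0.32 and −0.27 within days 6, 9 and 12.

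Myc was at 26881, 21438.5 and 24938 in lincRNA-p21 libraries, against 56808.5, 26978 and 32439 in luciferase libraries. These arms too did not overlap, by a narrow margin, since the highest lincRNA-p21 value was 26881 and the lowest luciferase value 26978. Myc had a log2 difference of −0.60 (95% interval −0.99 to −0.20, limma adjusted p = 0.196). Within days it was −1.08, −0.33 and −0.38, the first of them on day 6, when 0.773% of genes were at least 2-fold lower. Sox2 and Myc were the 2 factors whose arms did not overlap, as did 4.21% of all genes in the lower direction.

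Pou5f1 was at 19387.5, 44876 and 48090 in lincRNA-p21 libraries, against 27901, 44876 and 90514 in luciferase libraries, lower on days 6 and 12 and equal on day 9. The log2 difference was −0.48 (95% interval −0.94 to −0.02, limma adjusted p = 0.35). It was −0.24 without the luciferase library of day 12 (adjusted p = 0.648), −0.75 without that of day 9 (adjusted p = 0.371) and −0.30 with the values capped as described with the scale (adjusted p = 0.403), in a range of 0.182 to 1 over the alternatives. Klf4 was at 42046.5, 39217 and 39217 in lincRNA-p21 libraries, against 56808.5, 39217 and 39217 in luciferase libraries. The arms held the same Klf4 value on days 9 and 12 and differed on day 6 alone, and the fitted difference was −0.14 (95% interval −0.46 to 0.17, limma adjusted p = 0.673). That interval leaves room for a difference of either sign.

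Between the hairpin arms Klf4 was the factor that differed, higher in the lincRNA-p21 arm than in the Hnrnpk arm. Its signal was 42046.5, 39217 and 39217 in lincRNA-p21 libraries, against 27901, 25958 and 22588 in Hnrnpk libraries, or 151%, 151% and 174% of the Hnrnpk value. The libraries of the 2 arms did not overlap. The log2 difference was 0.66 (95% interval 0.34 to 0.98, limma adjusted p = 0.043), in a comparison that called 3.26% of all genes and 1.7% of all genes as higher. The call was lost when any 1 library other than the day 6 luciferase library was left out, with log2 differences of 0.59 to 0.75 and adjusted p up to 0.247, in a range of 0.0148 to 0.679 over the alternatives.

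Sox2 also lay higher in every lincRNA-p21 library (13595 to 15392.5) than in every Hnrnpk library (12194 to 12952), as 6.57% of genes did, with a log2 difference of 0.18 (limma adjusted p = 0.385). Pou5f1 (0.12, adjusted p = 0.819) and Myc (0.28, adjusted p = 0.437) overlapped between these arms. The plot of fitted differences sets the 4 factors side by side.

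**Figure D2:**
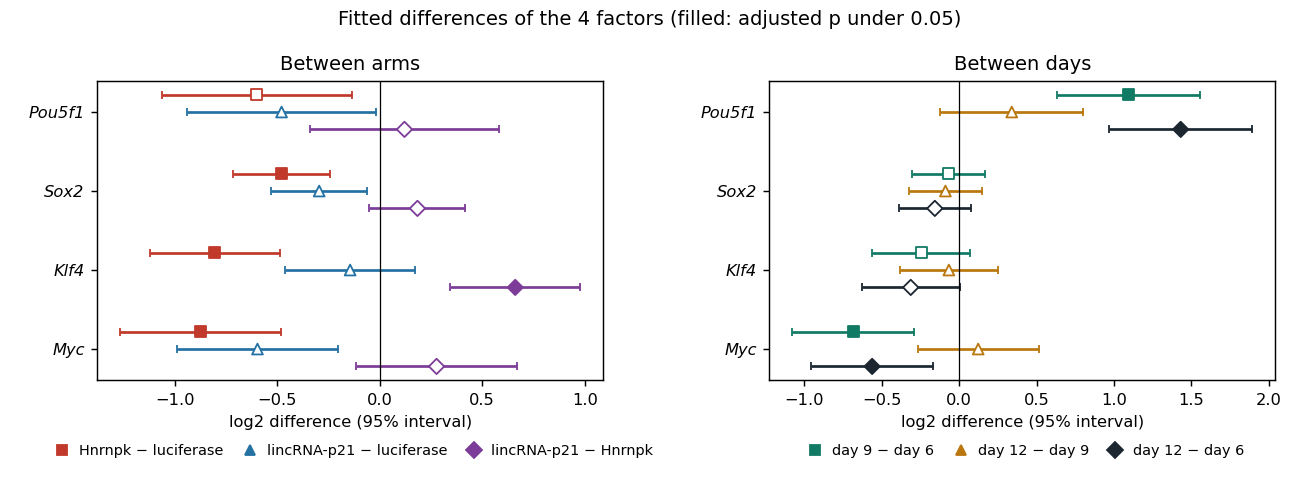
Fitted log2 differences (horizontal axes) of Pou5f1, Sox2, Klf4 and Myc between arms (left) and between days (right), with 95% intervals from limma as bars and filled symbols where the adjusted p was under 0.05. Klf4 and Myc lay furthest below 0 for the Hnrnpk arm against the luciferase arm, at −0.81 and −0.87, and Pou5f1 furthest above 0 between days 12 and 6, at 1.43.

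Over the days the factors parted. Pou5f1 rose and Myc fell after day 6 on average over the arms, and no change of Sox2 or Klf4 passed the test. On day 9 Pou5f1 was at 44876 in each of the 3 arms, against 17258.5, 19387.5 and 27901 on day 6 in the Hnrnpk, lincRNA-p21 and luciferase arms. Every day 9 library was above every day 6 library. The log2 difference was 1.09 (SE 0.20, limma adjusted p = 0.00383), in a comparison that called 39.9% of all genes and 18.9% of all genes as higher. The same separation held for 21.9% of genes between these days.

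On day 12 Pou5f1 was at 42046.5, 48090 and 90514 in the Hnrnpk, lincRNA-p21 and luciferase arms, again above every day 6 library, as were 21.4% of genes. The log2 difference from day 6 was 1.43 (limma adjusted p = 0.000661), and the comparison called 49.3% of all genes and 22.3% of all genes as higher. From day 9 the Pou5f1 difference was 0.34 (adjusted p = 0.489), where 0.654% of genes were called. The step after day 9 differed between arms, with the Hnrnpk value 42046.5 on day 12 below its day 9 value and the luciferase value 90514 above it.

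On day 9 Myc was at 17713, 21438.5 and 26978 in the Hnrnpk, lincRNA-p21 and luciferase arms, against 27901, 26881 and 56808.5 on day 6. It was lower on day 9 in each arm, although the days overlapped across arms. The log2 difference was −0.69 (limma adjusted p = 0.014) between days 9 and 6, where 21% of genes were called lower, and −0.56 (adjusted p = 0.025) between days 12 and 6, where 27% were. The luciferase arm held the largest step, and the day 12 call was lost without its day 6 library (−0.40, adjusted p = 0.0753), without its day 12 library (adjusted p = 0.0698) or without the Hnrnpk library of day 6 (adjusted p = 0.0609) or day 12 (adjusted p = 0.0974), in a range of 0.00897 to 0.497 over the alternatives. The day 9 call was lost without the luciferase library of day 9 (adjusted p = 0.081, range 0.00884 to 0.443).

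Sox2 was the steadiest of the 4 over the whole experiment, its highest value being 1.56 times its lowest, against 2.51 for Klf4, 3.48 for Myc and 5.24 for Pou5f1. Its log2 differences were −0.07 between days 9 and 6 (adjusted p = 0.626) and −0.16 between days 12 and 6 (adjusted p = 0.232). Klf4 had −0.25 (adjusted p = 0.188) and −0.31 (adjusted p = 0.0915), and its luciferase library of day 6, at 56808.5, was its highest of all. Since Pou5f1 rose and Sox2 did not, the log2 ratio of Pou5f1 to Sox2 signal moved within every arm, with 0.43, 1.79 and 1.78 on days 6, 9 and 12 in Hnrnpk libraries, 0.33, 1.66 and 1.82 in lincRNA-p21 libraries and 0.55, 1.34 and 2.47 in luciferase libraries. Whether the signal is set per transcript length is not known, so the changes in this ratio can be read but not its size.

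Whether an arm's difference from the luciferase arm itself changed with time was tested as a slope per 3 days. No factor passed in the Hnrnpk arm, with slopes of −0.21 for Pou5f1, 0.07 for Sox2, 0.11 for Klf4 and 0.02 for Myc (limma adjusted p 0.59 to 0.949), where 9.35% of genes were called. With any 1 lincRNA-p21 library left out, 0 genes were called on the Hnrnpk slope. No factor passed in the lincRNA-p21 arm, where 0 genes were called by limma and 2107 had an unadjusted p under 0.05. Myc had the largest slope there, 0.35 (adjusted p = 0.308). A straight line describes Pou5f1 poorly, since its difference was 0 on the middle day in both arms.

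The scale limits how finely the top values can be read. Above 39000 the deposited values of all genes fall into tight clusters with gaps between them. The 8 clusters that hold at least 30 entries stand 0.09 to 0.15 apart on the log2 scale up to the cluster at 62240 to 62366, and the top value of 118715 is a further 0.93 away. Klf4 held exactly 39217 in 4 libraries and Pou5f1 exactly 44876 in 3. Klf4 and Myc were tied with each other on day 6, at 27901 in the Hnrnpk arm and at 56808.5 in the luciferase arm. The highest value of Pou5f1, 90514, is the midpoint between that top value and 62313, a value of the cluster below it, so its log2 distance from the other arms on day 12 rests on a coarse part of the scale. The 56808.5 of Klf4 and Myc on day 6 in the luciferase arm is likewise the midpoint of 62313 and 51304. Such midpoints are what averaging pairs of columns on 1 shared scale of values gives, though the sources used here do not state that step, and the day 6 differences of −1.03 rest on such a value. With all values capped at 62366, an alternative chosen after seeing the data, the calls of the 4 factors in the comparisons of arms did not change, and the Pou5f1 difference from the luciferase arm was −0.42 in the Hnrnpk arm and −0.30 in the lincRNA-p21 arm.

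**Figure D3:**
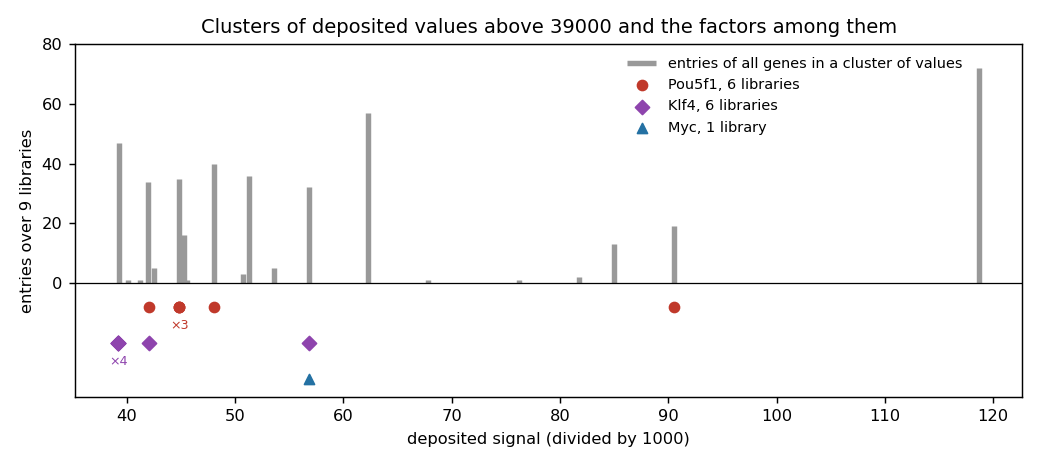
Number of entries over the 9 libraries (vertical axis, bars, all genes) in each cluster of deposited values above 39000, against the signal divided by 1000 (horizontal axis), with the libraries in which Pou5f1, Klf4 or Myc held such a value drawn as symbols below 0, where height only separates the genes and ×3 or ×4 marks libraries at 1 value. Of all entries, 72 sit at the top value of 118715, and Pou5f1 in the luciferase arm on day 12 sits alone among the factors at 90514.

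The labels name no plasmid for the relatives of the factors. Of the SOX family beside Sox2, 9 of 18 genes were tested, and 0 were called higher and 3 lower in the Hnrnpk arm than in the luciferase arm (median log2 difference −0.37, against 0.00 over all genes). Among all tested genes 5.58% were called higher and 6.94% lower in this comparison. Sox1, a neural gene closely related to Sox2, was at 33.5, 33 and 22 in Hnrnpk libraries, against 287, 78 and 64 in luciferase libraries. It was lower in each Hnrnpk library than in any luciferase library, with a log2 difference of −1.67 (limma adjusted p = 0.017). Sox12 had −0.84 (adjusted p = 0.0288) and Sox6 −0.77 (adjusted p = 0.0174), while Sox15 had 1.22 without passing (adjusted p = 0.078). Sox1 shared its course with Klf4 as well (Pearson r = 0.97 over the 9 libraries).

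Of the KLF family beside Klf4, 13 of 16 genes were tested, with a median of −0.25. Of these 2 were higher and 0 lower, a share near the 12.5% called over all genes. Klf2, which can take the place of Klf4 in mouse reprogramming, was at 200, 188 and 236.5 in Hnrnpk libraries, 187.5, 106 and 197 in lincRNA-p21 libraries and 129.5, 52 and 72 in luciferase libraries. Its Hnrnpk libraries lay above all luciferase libraries, opposite to Klf4 (log2 difference 1.28, limma adjusted p = 0.00961). Klf5, another factor of mouse stem cell self-renewal, rose by a log2 difference of 0.49 in the Hnrnpk arm (adjusted p = 0.0257) and was lower in the lincRNA-p21 arm than in the Hnrnpk arm (−0.55, adjusted p = 0.0417). Klf6 (0.54, adjusted p = 0.0581) and Klf8 (−0.48, adjusted p = 0.085) did not pass.

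Of the Myc network, 11 of 13 genes were tested, with 1 higher, 1 lower and a median of −0.11, where 12.5% of all genes were called. Mycn, the Myc paralog that embryonic stem cells express, was at 36.5, 437.5 and 675 in Hnrnpk libraries, 50, 195 and 436.5 in lincRNA-p21 libraries and 24, 33.5 and 33.5 in luciferase libraries. Mycn was higher in every Hnrnpk library than in any luciferase library, on day 6 by a narrow margin (36.5 against at most 33.5). Its log2 difference was 2.60 (limma adjusted p = 0.0212). The difference grew over the days (slope 1.76, adjusted p = 0.0236). With any 1 lincRNA-p21 library left out, 0 genes passed on this slope. Mxi1, which competes with Myc for Max, fell (−0.73, adjusted p = 0.013), while Mxd1 (−0.50, adjusted p = 0.138) and Mxd3 (−0.31, adjusted p = 0.348) did not pass. Of the POU family beside Pou5f1, 6 of 14 genes were tested and 0 were called by limma in either direction between these arms (median 0.15). The largest differences were Pou3f1 at 0.88 (adjusted p = 0.311), Pou3f2 at 0.39 (0.222), Pou1f1 at 0.32 (0.592) and Pou6f1 at −0.22 (0.172).

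Genes listed here as targets of Oct4 and Sox2 were higher, where any was called, in the Hnrnpk arm than in the luciferase arm. Of 21 targets of Oct4 and Sox2, 19 were tested. In the Hnrnpk arm 8 were higher and 0 lower than in the luciferase arm, with a median log2 difference of 1.18. Among all tested genes 5.58% were higher and 6.94% lower. Utf1, a chromatin factor of pluripotent cells, was at 10, 664 and 955.5 on days 6, 9 and 12 in Hnrnpk libraries, against 3, 17 and 52.5 in luciferase libraries. Its day 6 value in Hnrnpk libraries lay within the range of luciferase libraries, and the arms parted on days 9 and 12 (log2 difference 3.07, limma adjusted p = 0.0196). Esrrb, an orphan nuclear receptor that can replace Nanog functions in mouse cells, was at 10, 265 and 466 in Hnrnpk libraries, against 1, 44 and 72 in luciferase libraries (1.92, adjusted p = 0.00901). Its day 6 Hnrnpk value too lay within the range of the luciferase libraries.

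The other 6 targets called higher were Dppa5a (3.22, limma adjusted p = 0.0442), Lin28a (2.82, 0.0451), Tdgf1 (2.70, 0.0131), Sall4 (1.35, 0.0234), Spp1 (1.28, 0.00892) and Tdh (0.68, 0.0407). Spp1 was already at 4939.5 on day 6 in the Hnrnpk arm, against 1530 in the luciferase arm. Between days 9 and 6 its difference was 0.03 (limma adjusted p = 0.92). Nanog was at 143, 549.5 and 893 in Hnrnpk libraries, 121, 351 and 629 in lincRNA-p21 libraries and 179.5, 238 and 211 in luciferase libraries. On day 6 it was highest in the luciferase arm and on days 9 and 12 lowest there, and its overall difference of 0.97 between the Hnrnpk and luciferase arms missed the threshold (adjusted p = 0.129). Its slope passed, at 1.17 per 3 days (adjusted p = 0.0167), where 9.35% of genes were called. With any 1 lincRNA-p21 library left out, 0 genes passed on this slope. Against the luciferase arm, 0 of the 19 targets were called by limma in the lincRNA-p21 arm, with a median of 0.76. Only 0.00797% of all genes were called there. Within days, with no test, 12 of the 19 targets lay above 0 on day 6, 17 on day 9 and 19 on day 12.

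**Figure D4:**
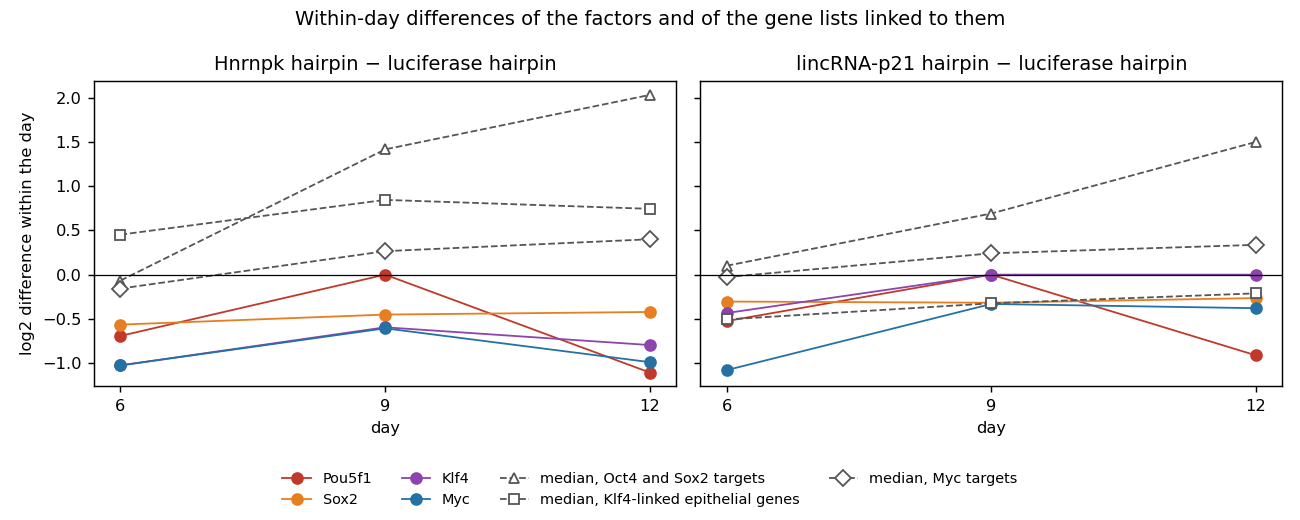
Within-day log2 differences (vertical axis) from the luciferase arm on days 6, 9 and 12 (horizontal axes) for the Hnrnpk arm (left) and the lincRNA-p21 arm (right), with no test. Solid lines with filled circles are the 4 factors, where equal values hide one another, and dashed lines are medians over the genes of a list. The median of the Oct4 and Sox2 targets was −0.07, 1.42 and 2.03 in Hnrnpk libraries while no factor lay above 0.

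Day by day, the targets' median difference from the luciferase arm was −0.07, 1.42 and 2.03 in Hnrnpk libraries and 0.10, 0.69 and 1.50 in lincRNA-p21 libraries, while the 4 factors lay at or below 0 throughout. Over time 15 of the 19 targets rose and 0 fell between days 9 and 6 (median 1.32), where 18.9% of all genes rose and 21% fell. Over the same days 7 of 18 fibroblast markers fell and 0 rose, among them Twist2 (−1.37, limma adjusted p = 0.00115) and Snai2 (−1.15, adjusted p = 0.0015), and 5 of 6 keratinocyte markers rose. The part of these cells in the rise of Pou5f1 and its targets was not tested. The luciferase arm had the highest Pou5f1 on day 12 and the lowest Nanog, Utf1, Esrrb and Mycn on that day.

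Of 30 Myc targets, all tested, 2 were higher and 1 lower in the Hnrnpk arm than in the luciferase arm, with a median of 0.10, a share near the 12.5% called over all genes. Npm1, a nucleolar protein gene on this list, sat at the top value of 118715 in every library but the lincRNA-p21 library of day 6, so no difference between the Hnrnpk and luciferase arms could be seen. Rrp12 (0.51, limma adjusted p = 0.0323) and Rrp9 (0.41, adjusted p = 0.0462), both of ribosome assembly, rose. Slc19a1, the folate carrier, was at 908, 820 and 584 in Hnrnpk libraries, 1491, 1346 and 1135 in lincRNA-p21 libraries and 1335.5, 1264 and 1279 in luciferase libraries. Its Hnrnpk libraries lay below all the others, by −0.76 from the luciferase arm (adjusted p = 0.00759), and the lincRNA-p21 arm was 0.79 above the Hnrnpk arm (adjusted p = 0.0176). Ncl (0.83, adjusted p = 0.107) and Odc1 (0.43, adjusted p = 0.126), well known targets of Myc, did not pass, and Ncl reached the top of the scale. Between days 9 and 6, when Myc fell, 2 of the 30 rose and 2 fell, where 18.9% of all genes rose and 21% fell.

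Of 12 epithelial genes, to which Klf4 is linked, 11 were tested. In the Hnrnpk arm 5 were higher and 1 lower than in the luciferase arm and the others did not pass, with a median of 0.78. Among all tested genes 5.58% were higher and 6.94% lower. Cdh1 was at 1235, 3214.5 and 4971 in Hnrnpk libraries, 553, 1360.5 and 2396 in lincRNA-p21 libraries and 772.5, 1135 and 2195 in luciferase libraries. It was highest in the Hnrnpk arm on each day (log2 difference from the luciferase arm 1.11, limma adjusted p = 0.00542). Krt18 (2.14, adjusted p = 0.0158), Cldn4 (1.198, 0.0044), Epcam (0.85, 0.00407) and Cldn7 (0.78, 0.0102) also rose, and Cldn3 fell (−0.59, 0.0422). Grhl2 did not pass (0.91, limma adjusted p = 0.0749).

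Of the same 11 epithelial genes 7 were lower and 0 higher in the lincRNA-p21 arm than in the Hnrnpk arm. Klf4 was higher in the lincRNA-p21 arm. Among all tested genes 1.56% were lower and 1.7% higher in this comparison. Cldn7 had −1.41 (limma adjusted p = 0.00584), Cldn4 −1.40 (0.00983), Cdh1 −1.14 (0.0136) and Epcam −1.11 (0.00584), with Krt18, Krt8 and Esrp1 also called. The lincRNA-p21 arm was also compared with the luciferase arm within days, with no test. On days 6, 9 and 12, 0, 2 and 4 of the 11 epithelial genes lay above 0. Their medians were −0.51, −0.32 and −0.21, and the Klf4 differences were −0.43, 0 and 0. Between days 9 and 6 all 11 rose (median 2.31), where 18.9% of all genes did, 7 of 18 fibroblast markers fell and 5 of 6 keratinocyte markers rose. Keratinocyte markers moved with the Hnrnpk arm too. In it 5 of 6 were higher and 0 lower than in the luciferase arm (median 1.07), where 5.58% of all genes were higher and 6.94% lower. Their summed signal ran between 2368 and 19321 in the Hnrnpk arm, 1366 and 9783 in the lincRNA-p21 arm and 1048 and 10070 in the luciferase arm. Fibroblast markers had 1 of 18 called higher (S100a4) and 0 lower, with a median of 0.01. What part these cells have in the values of the factors and their targets was not tested.

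Genes that control turnover of the factors' proteins showed 0 of 10 higher and 1 lower in the Hnrnpk arm, with a median of −0.11, a share near the 12.5% called over all genes. That gene was Usp28, a deubiquitinase that keeps Myc protein from being degraded in human tumour cells. It was at 742.5, 1847.5 and 1790 in Hnrnpk libraries, 855, 2008 and 2785.5 in lincRNA-p21 libraries and 1324, 3246 and 3724.5 in luciferase libraries. On each day Usp28 was lowest in the Hnrnpk arm and highest in the luciferase arm, with a log2 difference of −0.90 between them (limma adjusted p = 0.00407). Fbxw7, the ubiquitin ligase subunit that Usp28 works against, had −0.15 (adjusted p = 0.427), Huwe1 −0.24 (adjusted p = 0.31) and Usp36 −0.14 (adjusted p = 0.407).

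Among themselves, Sox2, Klf4 and Myc ran together over the 9 libraries, with Pearson r of 0.86 for Sox2 with Klf4, 0.83 for Klf4 with Myc and 0.82 for Sox2 with Myc. Pou5f1 did not follow them (r = 0.09 with Sox2, −0.02 with Klf4 and −0.18 with Myc). After each day's mean was subtracted, which leaves only differences between arms, Pou5f1 had r = 0.76 with Sox2, 0.65 with Klf4 and 0.81 with Myc. These are descriptions over 9 libraries that share arms, days and scale, and they carry no test.

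The genes whose course was most like each factor's were sought among 4998 genes whose values spanned at least 1 on the log2 scale, by Pearson r of log2(signal + 10) over the 9 libraries. They were Kif26a, Prex1 and Ptpru for Pou5f1 (each r = 0.98), Necab1, Col25a1 and Nrarp for Sox2 (each r = 0.94), Cntnap1, Fbrsl1 and Sox1 for Klf4 (r = 0.99, 0.98 and 0.97) and Egr1, Dnajc28 and Bcorl1 for Myc (each r = 0.95). Prex1, a Rac exchange factor, was at 202.5, 541 and 545.5 on days 6, 9 and 12 in Hnrnpk libraries, 207, 564.5 and 782 in lincRNA-p21 libraries and 344, 738 and 1262 in luciferase libraries. It had the same order of arms on day 12 as Pou5f1. Egr1, an immediate early gene of growth factor signalling, was at 1698, 1000.5 and 1297 in Hnrnpk libraries, 1556.5, 1288 and 1686 in lincRNA-p21 libraries and 3261, 1712 and 2256.5 in luciferase libraries. Like Myc, Egr1 was highest in the luciferase library of day 6.

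With day means subtracted the nearest genes were Plod1, Sepsecs and Pkp1 for Pou5f1 (r = 0.97, 0.96 and 0.95), Kdm5a, Mpst and Rapgefl1 for Sox2 (each r = 0.99), Mtr, Bcl11a and Ppp1r7 for Klf4 (r = 0.997, 0.995 and 0.993) and Rere, Spock2 and Peli2 for Myc (each r = 0.99). Mtr, the methionine synthase gene, was at 1543.5, 2691 and 2219.5 in Hnrnpk libraries, 2250, 4021 and 3602.5 in lincRNA-p21 libraries and 3042.5, 3831.5 and 3815 in luciferase libraries. As with Klf4, the lincRNA-p21 and luciferase arms were close on days 9 and 12 and the Hnrnpk arm lay below both. The highest of so many correlations over 9 values will be high for any gene, so these names are a description of these libraries.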

How the data were processed

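RNA-seq of 9 libraries (3 arms on 3 days) was analysed from the authors' deposited table of signal, 1 value per gene and library. The build is mm10 per the submitters' processing notes, which also list Bowtie 1.0.1 and RSEM 1.2.12 with no role for either. The sources used here do not say how the signal was scaled; by its values, all columns share 1 scale. No counts of reads were used and depth per library is unknown. There were 0 value columns without a library.

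To each deposited value 10 was added before the log2, so changes of low genes are understated. Genes with a mean of at least 20 (12541 of 12550) were tested in R 4.3.3 with limma 3.58.1, with terms for arm and day (4 residual and 8.46 total degrees of freedom) and an intensity trend, and p was adjusted by Benjamini-Hochberg over all of them at 0.05. Slopes used 2 residual and 7.73 total degrees of freedom. The fit was tested on simulated data. Since each library is merged replicates, p-values measure only the spread of arm differences over days, or of day differences over arms. Genes beside the factors were named by a rule, with the hairpin targets as a check. From each list of family, target, network or turnover genes it took up to 4 with the largest difference between the Hnrnpk and luciferase arms. It also took those called between arms, and the 3 most like each factor. Nanog and S100a4 were added after their values were seen. Npm1, Twist2, Snai2 and Sox2ot also fall outside the rule. The factors and gene lists were chosen with earlier results of these data known, so no count over a list is independent support. Loci came from GENCODE M21, promoters from RefSeq (GRCm38.p6). Python 3.11.15 with matplotlib 3.10.9 drew the plots.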

Additional observations from a re-analysis of the deposited data

How the results depend on the processing

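No pairing by replicate was possible because the labels carry no replicate numbers by which libraries could be matched. The libraries of the arms were matched by day alone, through the day term, which the fit on only 2 arms also has. Adding 1 or 50 in place of 10, no filter, a mean of at least 100, no intensity trend and the cap on values changed no call of the 4 factors. For the Hnrnpk arm against the luciferase arm 3 factors were called in the fit reported, where 12.5% of all genes were. The count was 0 on log2 ranks (9.42% of all genes called), 0 with only these arms in the fit (2.63%) and 0 without the day term (0.00797%). It was 4 when scaled to housekeeping genes (14.1%) and 0 to 3 with a library or day left out (0.199% to 23.9%). For the lincRNA-p21 arm against the Hnrnpk arm 1 factor was called, where 3.26% of all genes were. The count became 0 on ranks (1.24% of all genes called), 0 under housekeeping scaling (1.87%) and 0 without the day term (0.00797%). It was 0 to 1 in leave-one-out fits (0% to 7.65%). Between days 9 and 6, and between days 12 and 6, the 2 calls became 0 on ranks, 1 under housekeeping scaling, 1 without the arm term and 1 to 2 in leave-one-out fits. The fit reported called 39.9% and 49.3% of all genes in these comparisons. Of all genes 37.2% and 47.3% were called on ranks, 38% and 48.9% under housekeeping scaling and 27.9% and 39% without the arm term. In leave-one-out fits the shares were 24.4% to 44.7% and 34.5% to 49.6%. Rank is counted from the lowest gene, so by construction it leaves almost no distance among genes near the top. Whether that lost the calls on ranks, and what lost the other calls, was not tested.

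Housekeeping scaling moved the median of all genes by −0.12 between the Hnrnpk and luciferase arms and by 0.18 between days 12 and 6. It turned Sox2 to 0.067 between days 9 and 6, 0.0012 between days 12 and 9 and 0.069 between days 12 and 6, Klf4 to 0.024 between days 12 and 9, and the Hnrnpk slopes of Sox2 and Myc to −0.041 and −0.094. On ranks the Hnrnpk slopes of Pou5f1, Klf4 and Myc turned to 0.0029, −0.00012 and −0.0030 and the lincRNA-p21 slope of Pou5f1 to 0.0022. The cap turned the Pou5f1 slopes to 0.062 in the Hnrnpk arm and 0.075 in the lincRNA-p21 arm. With libraries left out the sign was not fixed for Pou5f1 between hairpin arms (−0.024 to 0.30), nor between days 12 and 9 for Klf4 (−0.16 to 0.0021) and Myc (−0.015 to 0.23). The Hnrnpk slopes ran from −1.02 to 0.60 for Pou5f1, −0.15 to 0.38 for Klf4 and −0.38 to 0.42 for Myc, and the lincRNA-p21 slopes from −1.003 to 0.62 for Pou5f1, −0.034 to 0.073 for Sox2, −0.049 to 0.48 for Klf4 and −0.049 to 0.75 for Myc. None of these results with a turned sign was called in the fit reported. Leave-one-out fits of an arm or day with fewer libraries assume that those libraries vary like the others. Depth is unknown, so no counting error can be given.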
